A study of Drosophila melanogaster with 2 samples.

Results

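Nuclear genes for the respiratory chain and ATP synthase were examined for binding of Rotund, a zinc-finger transcription factor known for its roles in leg, antenna and wing development, in Drosophila melanogaster pupae. The genes were taken by symbol: protein-coding genes on the main chromosome arms whose names begin with ND-, Sdh, UQCR, COX followed by a digit, or ATPsyn. The pattern gave 88 of 13945 protein-coding genes, of which 40 belong to complex I, 8 to complex II, 9 to complex III, 16 to complex IV and 15 to complex V. The 8 complex II genes include Sdhaf3, an assembly factor and not a subunit. A further division separated 24 duplicates, copies named after another subunit gene with a final L, from the other 64 genes.

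The study is a single-condition chromatin immunoprecipitation experiment with 1 group of 2 biological replicates. Whole pupae of the strain rn-GFP, which carry a transgene for an eGFP fusion of Rotund, were precipitated with an antibody against GFP after sonication. The pupal stage is recorded as unknown and sex was not collected. There was no second condition, so no test between conditions was possible, and the tissues that carry the signal cannot be told apart in whole animals. The fusion is a transgene, and how its level or pattern compares with endogenous Rotund was not analysed here.

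The respiratory chain sits in the inner mitochondrial membrane. Complexes I and II feed electrons from NADH and succinate to ubiquinone, complex III passes them to cytochrome c, complex IV delivers them to oxygen, and complex V uses the resulting proton gradient to make ATP. Most subunits are encoded in the nucleus and a small set by mitochondrial DNA, except that complex II is wholly nuclear. In flies many subunit genes have duplicates, a number of which are known for expression in the testis.

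The main peak set held 3774 peaks on the main arms that met an irreproducible discovery rate (IDR, the expected share of peaks that do not repeat between the lists compared) of 0.01. A gene was given a promoter peak when a summit lay within 500 bp of one of its annotated starts and, more broadly, a peak when a summit fell anywhere from 1 kb upstream to the end of its body. Sets of the same threshold for each replicate alone held 2375 and 2112 peaks, and a conservative set held 3613. Ranked lists without that threshold held 68133 peaks for replicate 1, 61965 for replicate 2 and 126185 over both. The ranked list over both replicates used here is the one that holds every peak of the main set. The authors supplied another ranked list over both replicates, whose values were not analysed here. Signal is the authors' enrichment value for a peak. It was read only within a list, because its median differed between lists, from 79.7 in the main set to 56.5 and 53.7 in the sets of replicates 1 and 2. Read depth is unknown from these lists.

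The DNA under the summits is shown for 6 promoters. The windows of the other called promoters, among them ND-MWFE and ND-24 of the main set, are not shown. The first 4 were called in the main set and the last pair only in the conservative set among the sets over both replicates. Each run is read from the Release 6 genome (dm6), 5′ to 3′ on the strand of the respiratory chain gene, at up to 50 bp on each side of the summit. Capitals mark an E-box in ATPsynCF6, a homeodomain core in ND-51 and a form of the nuclear respiratory gene element in ND-42 and ND-SGDH. The other runs hold none of the motifs searched.
ND-ASHI, chrX:6679326-6679426, minus strand: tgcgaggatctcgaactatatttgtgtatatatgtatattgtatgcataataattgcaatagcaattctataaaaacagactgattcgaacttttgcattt
ND-51, chr2L:6062800-6062900, minus strand: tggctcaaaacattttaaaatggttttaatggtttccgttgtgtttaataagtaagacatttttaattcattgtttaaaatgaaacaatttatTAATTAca
COX5B, chr2L:6557514-6557614, plus strand: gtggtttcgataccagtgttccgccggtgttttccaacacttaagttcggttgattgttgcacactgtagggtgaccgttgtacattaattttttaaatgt
ATPsynCF6, chr3R:23356082-23356182, minus strand: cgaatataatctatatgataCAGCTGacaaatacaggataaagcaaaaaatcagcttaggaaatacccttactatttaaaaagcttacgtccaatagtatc
ND-42, chr3R:22027504-22027604, plus strand: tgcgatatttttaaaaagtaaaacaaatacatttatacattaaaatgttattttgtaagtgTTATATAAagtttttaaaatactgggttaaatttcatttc
ND-SGDH, chr3L:12138585-12138674, minus strand: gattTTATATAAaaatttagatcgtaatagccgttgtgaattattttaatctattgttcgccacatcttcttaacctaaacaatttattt

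Rotund-eGFP peaks were found at few respiratory chain genes. In the main set 6 of 88 genes (6.82%, 95% Wilson interval 3.2 to 14.1) had a promoter peak, beside 12.1% of all protein-coding genes (1693 of 13945), a share that lies inside the interval. They were ND-ASHI, ND-MWFE, ND-51 and ND-24 of complex I, COX5B of complex IV and ATPsynCF6 of complex V. ND-39 and ND-75, also of complex I, had a peak outside the promoter window, which made 8 of 88 genes with a peak in the body or 1 kb upstream (9.09%, 4.7 to 16.9) beside 18.3% of all protein-coding genes (2554), a share that lies above the interval. That second count depends on gene length, and the median length was 1097 bp for the respiratory chain genes and 2166 bp for all protein-coding genes. The intervals cover counting error over genes only, and no test was made of the gap from all genes.

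The count was of similar size in the other peak sets. The conservative set gave 9 of 88 genes a promoter peak (10.2%) beside 11.7% of all protein-coding genes. The set of replicate 1 gave 6 (6.82%) beside 8.27%, and the set of replicate 2 gave 5 (5.68%) beside 7.90%. The shares were below that of all genes in each of the 4 sets. The Wilson intervals were 5.5 to 18.3% in the conservative set, 3.2 to 14.1% for replicate 1 and 2.5 to 12.6% for replicate 2. Each includes the share of all protein-coding genes in the same set, as does that of the main set. The 4 sets come from the same 2 replicates, so they are not separate observations. ND-ASHI, ND-MWFE, ND-51 and ND-24 were called in all 4 sets, whereas COX5B was absent from both single-replicate sets and ATPsynCF6 was present in that of replicate 1 only. Of the 6 promoter peaks, 4 were met by a peak in both single-replicate sets (66.7%), beside 630 of 1351 promoter peaks of all genes (46.6%).

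**Figure D1:**
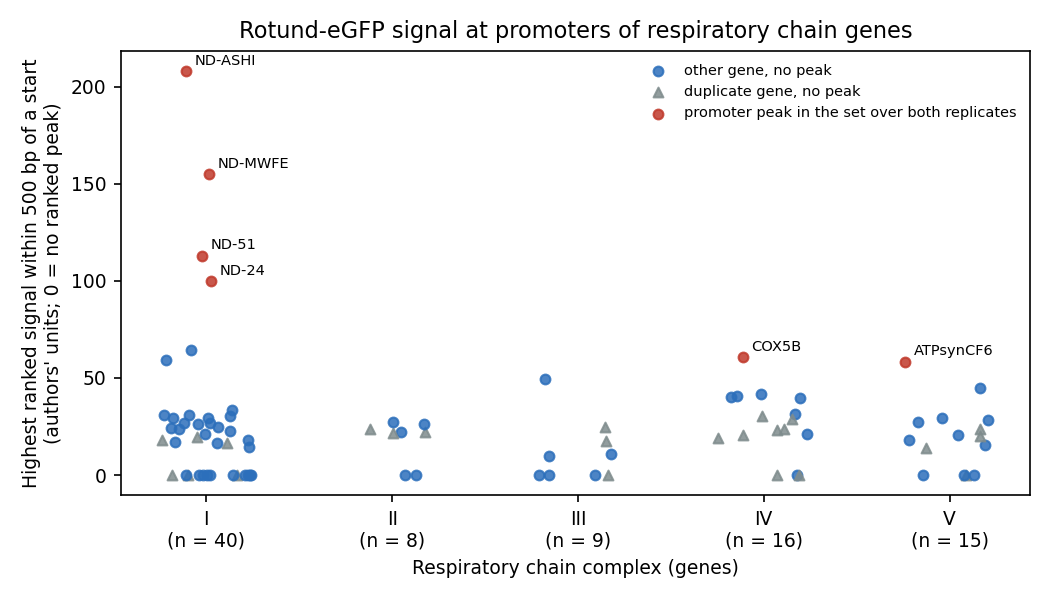
Highest ranked signal within 500 bp of a start for each of the 88 genes, in the ranked list over both replicates, by complex (horizontal positions within a complex are spread at random; 0 means no ranked peak). The 4 called complex I genes lie at 100 to 208, and no gene of complexes II and III rises above 49.3.

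Complex I, which holds 40 of the 88 genes, had 4 of the 6 promoter peaks, at 10% of its genes (4.0 to 23.1) beside 12.1% of all protein-coding genes. ND-ASHI, an accessory subunit of the membrane arm, had the strongest. Its signal was 208 in the main set (rank 313 of 3774, X:6679316-6679454), and the ranked lists gave 109 in replicate 1 and 97.8 in replicate 2. It stood above 98.4% of protein-coding genes in replicate 1 and above 98.1% in replicate 2. The summit lay 258 bp upstream of the outermost of 3 ND-ASHI starts and 1116 and 1215 bp upstream of the other 2. It was 264 bp from a start of Fum1, the fumarase of the tricarboxylic acid cycle, which reads the other way, so the same peak counts for both genes.

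ND-MWFE, a small accessory subunit of the membrane arm, had a signal of 155 (rank 605, 2R:13158318-13158613), with 87.5 in replicate 1 and 65.3 in replicate 2. Its summit was 200 bp upstream of the single ND-MWFE start but 21 bp from that of TppII, which encodes tripeptidyl peptidase II. The peak was therefore closer to the neighbour than to the respiratory chain gene.

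ND-51 and ND-24 encode core subunits of the module that oxidises NADH, the first binding NADH and FMN and the second an iron-sulphur cluster. ND-51 had a signal of 113 (rank 1033, 2L:6062702-6062997), with 54.9 in replicate 1 and 59.5 in replicate 2. ND-24 had 100 (rank 1285, X:17631990-17632285), with 57.6 and 44.9. The replicates differed in which of these genes ranked higher. The ND-51 summit lay 93 bp upstream of its nearest start and 139 bp from CG13994. The ND-24 summit lay 49 bp downstream of one of its 2 starts, in an untranslated exon, and 91 bp from corolla, which encodes a protein of the synaptonemal complex.

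The third core subunit of that module, ND-75, which carries iron-sulphur clusters, had a weaker peak farther off. Its signal was 62.1 (rank 2709, X:8252284-8252579) and its summit lay 745 bp upstream of ND-75 and 238 bp from CG1632. With it, 3 of 3 core subunits of the NADH module had a peak, 2 of them in the promoter window, whereas 0 of 4 core subunits of the quinone module (ND-49, ND-30, ND-20 and ND-23) had one. Over all protein-coding genes the shares were 18.3% with a peak and 12.1% with a promoter peak. This division was drawn after the values were seen, and with 3 and 4 genes the intervals for promoter peaks, 20.8 to 93.9% and 0 to 49.0%, overlapped. The remaining complex I peak was at ND-39, an accessory subunit, with a signal of 66.9 (rank 2430, 3L:20493453-20493748). It lay in an intron 1519 bp downstream of the outermost ND-39 start and 1746 bp upstream of an inner one. The start of ZnT77C, a zinc transporter gene, was 111 bp from the summit. The peaks at ND-75 and ND-39 were absent from both single-replicate sets.

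Among complex I genes without a peak in the main set, ND-42 and ND-SGDH, both accessory subunits, had the highest promoter signals in the ranked list over both replicates, at 64.6 and 59.4. ND-42 had 34 in replicate 1 and 33.3 in replicate 2, and ND-SGDH had 24.5 and 29.8. Both were above the weakest gene called in the main set, ATPsynCF6 at 58.4, and no other of the 82 genes without a promoter peak there was. ND-42 was called in the conservative set and in both single-replicate sets, and ND-SGDH in the conservative set. At the other end, ND-13A had no ranked promoter peak in any of the 3 lists. The median over all 40 complex I genes, with genes lacking a ranked peak counted as 0, was 20.4.

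Complexes II and III had no promoter peak in the main, conservative or single-replicate sets. For complex II this was 0 of 8 genes, which allows up to 32.4%, and for complex III 0 of 9, which allows up to 29.9%, and both intervals include the 12.1% of all protein-coding genes and the 10% of complex I. At a looser IDR of 0.05 the ranked list over both replicates added UQCR-11 of complex III and no gene of complex II. The highest ranked signals of complex II were 27.4 at SdhD and 26.5 at SdhC, which encode its membrane anchors. Neither had a ranked promoter peak in replicate 2, while replicate 1 gave 13.9 and 17.8. SdhA, the flavoprotein subunit that oxidises succinate, had no ranked promoter peak in any list.

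In complex III, UQCR-11, a small subunit, stood highest at 49.3, with 24.5 in replicate 1 and 19.3 in replicate 2, and its summit was 168 bp upstream of the start. UQCR-14L, a duplicate, followed at 24.7, with 14.5 and 10.5. UQCR-C1 and UQCR-C2, the large core proteins of the complex, had no ranked promoter peak in any list, nor did the duplicate UQCR-11L. The complex III median of 9.85 was the lowest of the 5 complexes, the others lying between 19.9 and 26.3.

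Complex IV had 1 called promoter of 16 (6.25%, 1.1 to 28.3, which includes the 12.1% of all protein-coding genes). COX5B, a zinc-binding subunit, had a signal of 60.8 (rank 2775, 2L:6557416-6557711), with 39.3 in replicate 1 and 22 in replicate 2. It stood above 91.9% of protein-coding genes in replicate 1 and above 83.6% in replicate 2, whereas each of the 4 called complex I genes stood above 93.9% or more in both. The summit lay 236 bp upstream of COX5B and 62 bp from the start of IFT52, an intraflagellar transport gene. COX5A, another nuclear subunit, came next with 41.5 over both, 24.3 in replicate 1 and 25.6 in replicate 2. COX7A, a small membrane subunit, had 40.7 over both, 12.9 in replicate 1 and 23.9 in replicate 2. COX4 had no ranked promoter peak in any list. The complex IV median of 26.3 was the highest of the complexes, with its genes spread from no peak to 60.8.

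Complex V had 1 called promoter of 15 (6.67%, 1.2 to 29.8, which also includes the 12.1%). ATPsynCF6, a subunit of the peripheral stalk, had a signal of 58.4 (rank 2939, 3R:23355984-23356279), with 39.5 in replicate 1 and 22 in replicate 2. Its summit lay 68 bp upstream of the nearer of 2 starts and 146 bp from Sec13, which encodes a protein of the COPII coat and the nuclear pore. A further peak of 57.1 (3R:23356898-23357193) lay 982 bp upstream, 483 bp from a Sec13 start. ATPsynE, subunit e of the membrane sector, was next at 45 over both with 31.1 and 18.7, and ATPsynB, a stalk subunit, had 29.4 over both, no ranked promoter peak in replicate 1 and 13 in replicate 2. ATPsynbeta, the catalytic subunit of the F1 head, had no ranked promoter peak in any list, and the same held for the duplicate ATPsynCF6L.

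**Figure D2:**
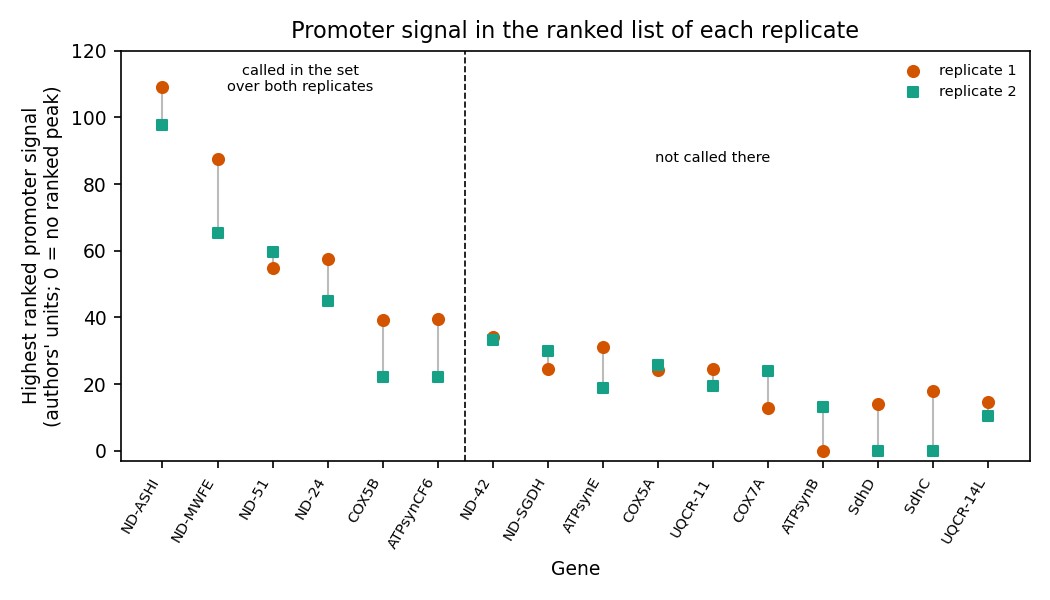
Highest ranked promoter signal in replicate 1 (circles) and replicate 2 (squares) for the 6 genes with a promoter peak in the main set, left of the dashed line, and the 2 highest genes of each complex not called in that set, right of it; 0 means no ranked peak. The 4 called complex I genes stand at 44.9 or higher in both replicates, whereas COX5B and ATPsynCF6 reach 22 in replicate 2, below ND-42, ND-SGDH, COX5A and COX7A.

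The Wilson intervals of the 5 complexes overlapped, and differences among complexes were not tested. Most genes had only weak signal. A promoter peak of any rank was present at 62 of 88 genes (70.5%) in the list over both replicates, beside 75.4% of all protein-coding genes. The median signal, with absent peaks as 0, was 21.2 for the respiratory chain genes and 19.9 for all protein-coding genes over both replicates. It was 9.49 and 9.79 in replicate 1, and 6 and 8.74 in replicate 2. The middle of the distribution was therefore close to that of all genes over both replicates and in replicate 1, and lower in replicate 2. In the ranked list over both, 5 of 88 genes (5.68%) stood above the 90th percentile of all protein-coding genes, 15 (17.0%) above the 75th and 47 (53.4%) above the 50th.

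A ranked promoter peak in both replicates was found at 33 genes (37.5%), beside 40.5% of all protein-coding genes. A further 16 genes (18.2%, beside 16.1%) had one in replicate 1 only and 14 (15.9%, beside 14.9%) in replicate 2 only. The remaining 25 (28.4%) had one in neither, beside 28.5% of all protein-coding genes. The 56 genes with a ranked promoter peak but none in the main set had a median score of 80 of a possible 1000, where the score falls as the IDR rises.

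**Figure D3:**
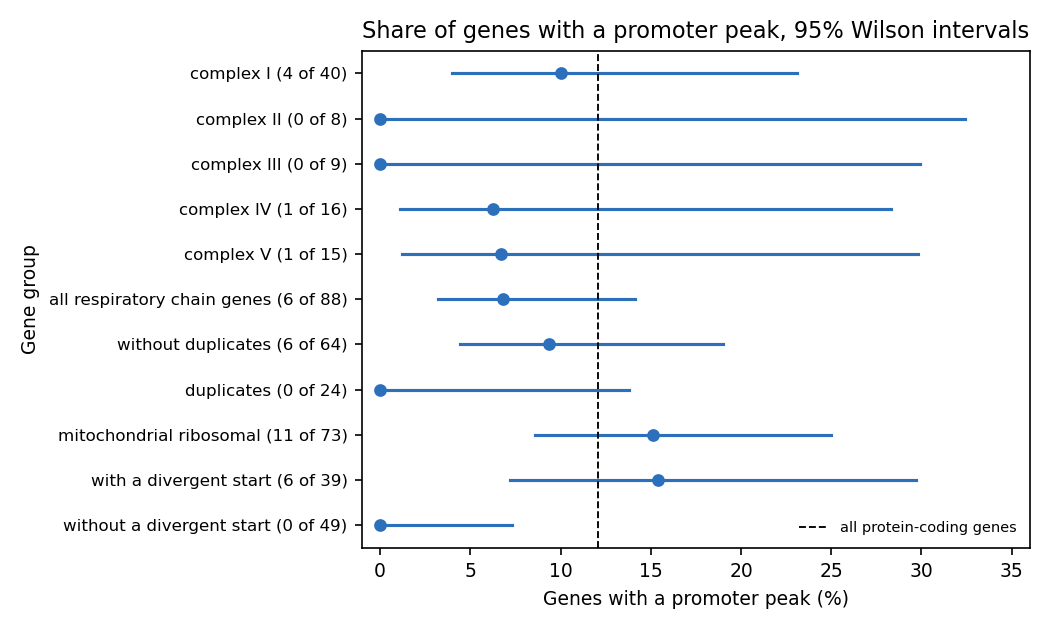
Percentage of genes with a promoter peak in the main set for each complex and group (points) with 95% Wilson intervals (lines), and the share of all protein-coding genes, 12.1% (dashed line). The interval lies wholly below the dashed line only for the 49 genes without a divergent start, whose own background is 8.20%.

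Every called respiratory chain promoter was shared with a neighbour. All 6 had the start of another gene within 500 bp of the summit, beside 959 of 1693 protein-coding genes with a promoter peak (56.6%). All 6 belonged to the 39 genes with a divergent coding start, here a start of another protein-coding gene on the opposite strand within 500 bp upstream, a definition chosen after the values were seen. Of those 39 genes 6 had a promoter peak (15.4%, 7.2 to 29.7), beside 22.6% of all divergent protein-coding genes (862 of 3815). Of the 49 without a divergent start 0 had one, which allows up to 7.3%, beside 8.20% of such genes in all (831 of 10130). ND-ASHI met this definition through an inner start, while the ND-ASHI and Fum1 starts on either side of its peak lie more than 500 bp apart. Divergent starts were present at 44.3% of the respiratory chain genes and 27.4% of all protein-coding genes. These peaks cannot be assigned to one gene of a pair from position alone.

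The summit lay upstream of the respiratory chain gene in 5 of the 6 promoters (83.3%, beside 85.2% of all called genes), the exception being ND-24. A start of another gene was nearer than that of the respiratory chain gene in 2 of 6 (33.3%, beside 27.3%), at ND-MWFE and COX5B. When each peak was given only to its nearest coding start, the count of genes with a peak stayed at 8 but shared 4 genes with the main count: ND-MWFE, COX5B, ND-39 and ND-75 were lost, and ND-20L, ND-B14.7, COX7AL2 and COX7C were gained. ND-20L and ND-B14.7 had no peak in the body or 5 kb upstream, so this rule also counted peaks outside that window. The share of all protein-coding genes under this rule is not given.

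Some pairs joined a respiratory chain gene to another mitochondrial gene. They were picked after the values were seen, and how often divergent genes in general face a mitochondrial gene was not counted. Fum1 faces ND-ASHI across the strongest peak, and Cchl, which encodes the lyase that attaches haem to cytochrome c, faces ND-42. The other promoters called in the main set were paired with TppII, CG13994, corolla, IFT52 and Sec13. Among genes of the lists examined, kdn (citrate synthase) is divergent from ND-B16.6 at 228 bp and mRpL55, a mitochondrial ribosomal protein gene, from ATPsynD at 95 bp. Neither ND-B16.6 nor ATPsynD had a promoter peak in the main set. ND-B16.6 had no ranked promoter peak in any list, and ATPsynD had 28.4 over both replicates.

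**Figure D4:**
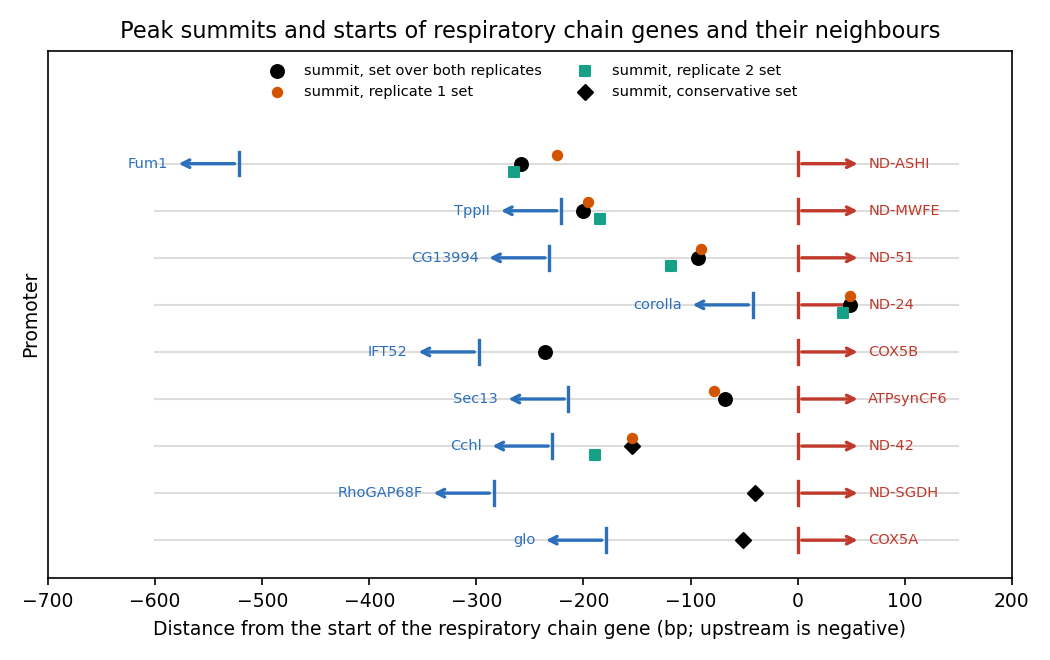
Summits (points) relative to the nearest start of the respiratory chain gene (right-pointing arrows, position 0) with the start of the neighbouring gene nearest to the summit (left-pointing arrows), in bp, for the 6 genes of the main set and the 3 seen in the conservative set but not in the main set. In 8 of the 9 the summit lies between the starts drawn. At COX5A the nearest start is an inner one, and the summit lies in an untranslated exon, past the outermost COX5A start. At ND-24 the summit lies 49 bp past the nearest ND-24 start and 183 bp upstream of another.

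The 24 duplicates had no peak in the body or 1 kb upstream and no promoter peak in the main set (0%, allowing up to 13.8%), whereas 6 of the 64 other genes had a promoter peak (9.38%, 4.4 to 19.0). The 12.1% of all protein-coding genes with a promoter peak lies inside both intervals, and the difference between the classes was not tested. For a peak in the body or 1 kb upstream the share of all protein-coding genes was 18.3%, above the 13.8% limit of the duplicates. That count depends on gene length, with medians of 744 bp for the duplicates and 2166 bp for all protein-coding genes. The strongest ranked promoter signal of a duplicate was 30.2. The duplicates of the called genes had lower signals than their parents, which were picked for having a called peak. ND-24L had 18.3, ND-51L2 had 19.6 and COX5BL had 18.9 over both replicates, near the median of 19.9 for all protein-coding genes. ND-51L1 and ATPsynCF6L had no ranked promoter peak. None of these 5 duplicates had a ranked promoter peak in replicate 1. Over all members of each class the medians were nearer, 19.3 for the duplicates and 23.3 for the other genes. Divergent starts also differed between the classes, with 3 of 24 duplicates (12.5%) and 36 of 64 other genes (56.2%) having one, and the part of that difference in the peak counts was not tested.

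Genes that serve the same pathway under other names were taken from lists chosen with earlier results of these data known. The lists of subunits, assembly factors, tricarboxylic acid cycle genes and mitochondrial DNA genes are small and have no intervals here. Their gaps from all genes were not tested. Outside the name pattern were 9 genes of the chain, 7 for subunits and 2 for the mobile carrier cytochrome c. Of these 9, 4 had a peak (44.4%) and 3 a promoter peak (33.3%), beside 18.3% and 12.1% of all protein-coding genes. Without cytochrome c, 2 of 7 had a peak, in each case a promoter peak. Those with promoter peaks were blw, the alpha subunit of ATP synthase, with a signal of 156 at 164 bp upstream, levy, a complex IV subunit, with 122 at 136 bp upstream, and Cyt-c-d. The 2 neighbouring cytochrome c genes shared a peak of 44 and each had a stronger one of its own in an intron, of 327 at 367 bp downstream of the start in Cyt-c-d and of 242 at 940 bp downstream in Cyt-c-p.

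Of 11 assembly factors found by name, 2 had a peak (18.2%) and 1 a promoter peak (9.09%), beside 18.3% and 12.1% of all protein-coding genes. The promoter peak was at CIA30, which serves complex I assembly, with a signal of 806 (rank 8) at 107 bp upstream. Coa8, an assembly factor of complex IV, had a peak of 68.9 at 553 bp upstream, just outside the promoter window. Of 13 genes of the tricarboxylic acid cycle and pyruvate dehydrogenase, 5 had a peak (38.5%) and 4 a promoter peak (30.8%), beside 18.3% and 12.1% of all protein-coding genes. The peak counted for Fum1 is the one already counted for ND-ASHI. Besides Fum1, Idh3g and Idh3b, subunits of isocitrate dehydrogenase, had 134 and 61.6, Pdhb, the beta subunit of pyruvate dehydrogenase, had 92.7, and kdn had 58.8 in an intron. For maintenance and expression of mitochondrial DNA, 0 of 10 genes had a peak, beside the same 18.3%. Among 73 mitochondrial ribosomal protein genes 11 had a promoter peak (15.1%, 8.6 to 25, an interval that includes the 12.1%). Of these 11, 10 were at the 53 genes with a divergent start, which make up 72.6% of the 73. Over all protein-coding genes with a divergent start, 22.6% had a promoter peak (862 of 3815).

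Motif letters were searched on both strands within 50 bp of the summits. DRE (TATCGATA), the Ohler motif 1 core (GGTCACAC), GAGAG and the nuclear respiratory gene element (TTACATAA, TTACGTAA or TTATATAA) were each at 0 of the 6 summits, beside 1.85%, 0.740%, 10.9% and 2.59% of 1351 promoter summits. The E-box CAGCTG was at ATPsynCF6 only (3.48% of all), the Ohler motif 7 core CAGCNCTA at ND-MWFE only (1.33%), the homeodomain core TAATTA at ND-51 only (9.84%) and a run of AAAAAAA at ND-24 only (18.0%). No motif therefore occurred at more than 1 of the 6 summits. Within 25 bp, only the Ohler motif 7 core remained. Outside the main set, the nuclear respiratory gene element was present at ND-42 and ND-SGDH, in both as TTATATAA. The stretches shown above held 17.8% and 24.4% G and C. The share of promoter summits of the conservative set with this element is not given. ND-SGDH also had a run of AAAAAAA within 50 bp of its summit, beyond the stretch shown. COX5A, the other promoter seen in the conservative set and not in the main set, had none of the motifs.

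Over windows from 250 bp before to 50 bp after the start, the Ohler motif 1 core was in 16 of 88 respiratory chain promoters (18.2%) and 7.71% of all coding promoters. It was in the promoters of 2 of the 6 called genes, though at 0 of their summits. DRE was in 10.2% and 9.37%, the E-box in 23.9% and 17.7%, and the nuclear respiratory gene element in 6.82% and 5.18%. The Ohler motif 7 core was in 6.82% and 3.58%, the run of AAAAAAA in 30.7% and 26.8%, and TAATTA in 23.9% and 20.5%. GAGAG went the other way, in 22.7% of respiratory chain promoters and 29.8% of all coding promoters. These gaps were not tested. The 51 bp around the 6 summits held 19.6 to 45.1% G and C, with a median of 28.4%, beside 33.3% for all promoter summits. At 200 bp from the summits the medians were 40.2% and 42.2%. Low G and C content at the summit was thus present in both groups.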

How the data were processed

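Rotund-eGFP peaks were taken from the lists the authors deposited for 2 biological replicates. Per the labels, reads were placed on dm6; the names of the aligner and caller are not stated in the labels. The deposited values are a signal per peak, a score of up to 1000 that falls as the irreproducible discovery rate (IDR) rises, and, in ranked lists, a −log10 IDR. The authors' main set over both replicates held peaks at an IDR of 0.01 or lower. Controls were not analysed here, so the background under each peak is the authors' own.

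Genes and starts came from Ensembl annotation BDGP 6.54 on the Release 6 genome. All 88 genes had the same place in RefSeq, and 0 peaks ended beyond their arm. Summits were assigned to promoters (within 500 bp of any start) and to bodies with 1000 bp upstream, with Python 3.11.15, numpy 2.4.6 and scipy 1.17.1. Assignment was tested on simulated data. Intervals are 95% Wilson intervals for counting error only. With 1 group, no significance test was run.

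The genes named are every member with a main-set peak, in each complex the 2 highest and the 1 lowest without one by ranked promoter signal over both replicates, every duplicate with a peak, and up to 4 genes with a peak in each pathway list. Genes tied at the lowest rank, neighbours and divergent partners, the quinone module and genes gained under alternatives were named after their values were seen. A duplicate is a symbol that, without its final L or L and digit, names another coding gene, plus copies of sun, levy and cype. COX6AL2, a copy of levy, was added after the lists were read. The members and lists were chosen with earlier results of these data known. Pet100, Ecsit and Nc73EF matched no symbol and were left out. Alternatives changed the peak set, the IDR, the promoter width, the upstream length, the replicate used and the motif window.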

Additional observations from a re-analysis of the deposited data

Results flagged for a closer look

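The promoter peaks of 3 genes appeared in the conservative set and not in the main set, which the counts by complex rest on. Each is a signal in data outside the main measurement. ND-42 had a signal of 64.6 (3R:22027406-22027701, score 1000 in the conservative set). It was also called in the set of each replicate, yet in the ranked list over both replicates used here it had a score of 50, an IDR of 0.75, at rank 2666. Its IDR in the other ranked list over both replicates was not analysed. ND-SGDH had 59.4 (3L:12138476-12138771), with a score of 725 and an IDR of 0.02 in that list, just short of the threshold of 0.01. COX5A had 41.5 (3R:11819400-11819695), with a score of 227 and an IDR of 0.28. ND-42 and ND-SGDH were not lower in signal than ATPsynCF6, which was called at 58.4. What sets the IDR of ND-42 apart from its signal was not tested.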

How the results depend on the processing

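Of 118 recomputed values 74 were unchanged and 44 differed. Of the 55 that answer a comparison 30 were unchanged, 14 differed by no more than 1.5 times and 11 by more. Within that tolerance the promoter count of 6 ranged from 4 to 9 and that of complex I, 4, from 3 to 6. The 8 genes with a peak in the body or 1 kb upstream became 4 at an IDR of 0.001, 2 with the gene body alone, 20 with 5 kb upstream, and 5 to 6 with either replicate left out. The 6 genes with a promoter peak became 11 at an IDR of 0.05, a setting chosen after seeing the data that adds UQCR-11 of complex III, and 5 to 6 with either replicate left out. Shares of all protein-coding genes are not given for either changed IDR, the gene body alone or 5 kb upstream. Nor is the share with a peak in the body or 1 kb upstream given for each replicate alone. The counts at those settings therefore have no background beside them. Complex IV had 1 promoter peak, 2 in the conservative set, 0 at an IDR of 0.001 and 0 with either replicate left out. Complex V had 1, 0 at an IDR of 0.001 and 0 to 1 with either replicate left out. The causes were not tested. At an IDR of 0.001 the genes left were ND-24, ND-51, ND-ASHI and ND-MWFE. The calls at COX5B, ND-39 and ND-75 are in neither single-replicate set, and that at ATPsynCF6 is not in the set of replicate 2. Read depth is unknown, so an uncalled promoter is not shown to be unbound. No paired analysis was possible because the 2 replicates form 1 group.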
